A study of Mus musculus with 32 samples.

Results

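De novo lipogenesis, the making of fatty acids from acetyl-CoA, was examined through 10 genes: the enzymes Acly, Acaca, Acacb, Fasn, Elovl6, Scd1 and Scd2, the lipogenic regulator Thrsp, and the transcription factor genes Srebf1 and Mlxipl. They were taken by symbol from a table of 54532 genes, each symbol matched 1 row, and all 10 were at levels high enough to be tested in every tissue. The study sequenced RNA of liver, brown fat (BAT) and a pair of white depots, the subcutaneous inguinal (iWAT) and the visceral epididymal fat (eWAT), of wild-type C57/Bl6j mice. All mice, the vehicle group included, had eaten a diet with 60% fat for 12 weeks, and then received either vehicle or auranofin (1 mg/kg), with 3 doses per week over 4 weeks. Auranofin, a gold compound used against rheumatoid arthritis, is known as an inhibitor of thioredoxin reductase. There were 32 libraries, 4 per treatment in every tissue, and no lean or chow-fed group was among them. The labels do not give the animals' age or say that each library came from a separate animal, so the spread behind each p-value is that between libraries, which may be technical.

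In this pathway, citrate exported from mitochondria is split to acetyl-CoA by ATP citrate lyase (Acly), acetyl-CoA carboxylase makes malonyl-CoA, and fatty acid synthase (Fasn) builds palmitate, which Elovl6 elongates and the stearoyl-CoA desaturases make monounsaturated. SREBP-1c, encoded by Srebf1, conveys the insulin signal to these genes, and ChREBP, encoded by Mlxipl, conveys the signal of glucose metabolites. In rodents the pathway runs in liver and in fat, and brown fat is known to express it strongly, while a diet rich in fat is known to lower it. Both transcription factors are controlled largely after transcription, by proteolytic release and by metabolites, so a transcript level is not a measure of their activity.

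Values are FPKM, reads per kilobase of gene and scaled to a library size that the authors rescaled between libraries, so they compare genes per length. Means are given ± SD over 4 libraries. A log2 change is auranofin minus vehicle, and a log2 difference is between tissues, both on the log2(FPKM + 1) scale, which understates changes of low genes. Between 13606756 and 19205640 reads per library fell on genes. The lowest read numbers of any member were those of Scd2 in liver, with 36 to 121 reads. Libraries carried the defining markers of their tissues: the summed level of 8 hepatocyte markers was 86201 to 129401 FPKM in liver and at most 696 elsewhere, and that of 8 brown adipocyte markers was 3766 to 7819.6 FPKM in BAT and at most 104 elsewhere. Skeletal muscle markers reached 1368 FPKM in vehicle library 4 and 775 in auranofin library 4 of iWAT, against at most 34.3 in the other iWAT libraries. In bulk tissue, fewer cells of a type and less RNA per cell cannot be told apart.

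Positions are on the mouse build mm10. Chromosome 11 holds Fasn (ENSMUSG00000025153, 120805846 to 120824547, minus strand), Acaca (ENSMUSG00000020532, 84129672 to 84401651, plus strand), Acly (ENSMUSG00000020917, 100476353 to 100528000, minus strand) and Srebf1 (ENSMUSG00000020538, 60199089 to 60222581, minus strand). Chromosome 5 holds Acacb (ENSMUSG00000042010, 114146535 to 114250761, plus strand) and Mlxipl (ENSMUSG00000005373, 135089890 to 135138382, plus strand), and chromosome 19 holds the neighbours Scd1 (ENSMUSG00000037071, 44394451 to 44407709, minus strand) and Scd2 (ENSMUSG00000025203, 44293676 to 44306864, plus strand). Elovl6 (ENSMUSG00000041220, 129532355 to 129638495, plus strand) is on chromosome 3 and Thrsp (ENSMUSG00000035686, 97412938 to 97417730, minus strand) on chromosome 7. The kit kept no strand, so reads of an overlapping gene on the other strand cannot be parted from a member's: Gm43500, antisense within Mlxipl, reached 14.1 FPKM in 1 library, Gm35986 at the start of Elovl6 6.80, and Gm11437 within Acaca 4.39. Transcripts of Scd1 and Scd2 share an unbroken run of 147 bases, so reads in it cannot be assigned to 1 of them, whereas the longest run shared by Acaca and Acacb was 29 bases.

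Because Fasn, Thrsp, Acly and Mlxipl carry most of the results that follow, the 200 bases before an annotated start of each are printed, 5′ to 3′, from RefSeq promoter windows on GRCm38.p6, for which 8 of the 10 members matched by symbol (all but Scd1 and Scd2). Capitals mark matches on either strand to an E-box (CACGTG, a site type bound by bHLH factors), a sterol element core (TCACNCCAC), a CCAAT box (CCAAT, bound by NF-Y) and a GC box (GGGCGG, bound by Sp1).
Fasn, chr11:120824548-120824747, minus strand: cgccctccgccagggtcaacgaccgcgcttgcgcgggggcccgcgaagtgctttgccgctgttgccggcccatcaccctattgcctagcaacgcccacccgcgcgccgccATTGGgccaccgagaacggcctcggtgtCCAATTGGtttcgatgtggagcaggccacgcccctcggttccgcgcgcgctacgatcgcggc
Thrsp, chr7:97417551-97417750, minus strand: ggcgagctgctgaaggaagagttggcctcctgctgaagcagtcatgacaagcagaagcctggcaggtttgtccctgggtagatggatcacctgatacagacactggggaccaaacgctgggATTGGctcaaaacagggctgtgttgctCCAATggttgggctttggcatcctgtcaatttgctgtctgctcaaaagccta
Acly, chr11:100528001-100528200, minus strand: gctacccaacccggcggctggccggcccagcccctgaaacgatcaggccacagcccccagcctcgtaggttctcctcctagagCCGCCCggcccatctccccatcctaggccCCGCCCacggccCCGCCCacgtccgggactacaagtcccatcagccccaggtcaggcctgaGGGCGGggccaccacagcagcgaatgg
Mlxipl, chr5:135089690-135089889, plus strand: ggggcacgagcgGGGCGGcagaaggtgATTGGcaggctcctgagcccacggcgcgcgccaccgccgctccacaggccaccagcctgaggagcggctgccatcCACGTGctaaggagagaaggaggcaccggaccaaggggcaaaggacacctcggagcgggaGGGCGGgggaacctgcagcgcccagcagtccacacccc
In these stretches Fasn held 3 CCAAT matches, which begin 90, 62 and 59 bases before the start, the last 2 overlapping on opposite strands. Thrsp held 2 CCAAT matches, 79 and 52 bases before the start, and no GC box. The gene as counted reaches to 97417730, so most of the Thrsp stretch, with both matches, lies within it. Acly held 4 GC boxes and no CCAAT box there. Mlxipl held the E-box, 98 bases before the start, with a CCAAT box and 2 GC boxes. Over the full windows of 300 bases, 250 before and 50 after the start, a CCAAT box was in 6 of the 8 members (7 of their 11 windows, against 37.4% of all 32851 windows), a GC box in 3 of the 8 (4 windows, against 35.7%), and an E-box (7.15% of all windows) and a sterol core (1.24%) each in 1 window, both of Mlxipl. These are matches of letters, given as a description.

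Brown fat stood far above the other tissues in transcripts of 6 of the 7 lipogenic enzymes, the exception being Scd2. In the vehicle libraries, Fasn had 1028, 1011, 2036 and 1316 FPKM in BAT, 164, 243, 176 and 234 in iWAT, 134, 175, 142 and 79.5 in liver and 70.1, 111, 154 and 189 in eWAT. The lowest BAT library was above the highest of any other tissue, and the other 3 tissues overlapped. The level in BAT was 6.59 times that in iWAT (log2 difference 2.68, SE 0.31, limma adjusted p = 4.15e-06). Acly had 348, 390.3, 755 and 528 FPKM in BAT against 84.5 ± 10.2 in liver, 43.5 ± 6.33 in eWAT and 37.9 ± 4.799 in iWAT, 5.98 times the level of liver, the next tissue (liver minus BAT, log2 difference -2.51, limma adjusted p = 1.69e-08).

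The carboxylases and the elongase were likewise highest in BAT. Acaca, the cytosolic carboxylase, had 113 ± 37.8 FPKM in BAT, 11.5 times the 9.84 ± 1.22 of iWAT (log2 difference 3.34, SE 0.21, limma adjusted p = 5.6e-09). Acacb, the carboxylase at the outer mitochondrial membrane whose malonyl-CoA restrains fatty acid oxidation, had 89.8 ± 21.3 FPKM in BAT, 8.14 times the 11.04 ± 2.54 of liver (limma adjusted p = 6.15e-08). Elovl6 had 84.4 ± 30.2 FPKM in BAT, 5.95 times the 14.2 ± 5.05 of liver (limma adjusted p = 9.62e-07). The mean ratio of Acaca to Acacb was 1.60 in iWAT, 1.51 in eWAT, 1.24 in BAT and 0.760 in liver. In the iWAT libraries that carried skeletal muscle RNA it was lowest, 0.883 in vehicle library 4 and 0.897 in auranofin library 4, and the part of muscle in this was not tested.

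Among the desaturases, Scd1 was the most abundant of the 10 transcripts in every tissue and Scd2 was near 1 FPKM in liver. Scd1 had 7241, 6797, 13449 and 10176 FPKM in BAT, 3674, 3933, 3821 and 3159 in iWAT, 1032, 2288, 1949 and 2671 in eWAT and 1367, 2349, 1303 and 1212 in liver. BAT was above the others without overlap, and iWAT was above eWAT and liver without overlap. Scd2 had 101, 125, 90.6 and 85.5 FPKM in iWAT, 46.3, 80.0, 161 and 54.8 in BAT, 57.3, 62.5, 89.7 and 94.8 in eWAT and 1.11, 1.54, 1.00 and 1.04 in liver. Its 3 fat depots overlapped and did not differ by the test (limma adjusted p = 0.295 for BAT against iWAT and 0.959 for BAT against eWAT), while liver was lower than eWAT (log2 difference -5.12, limma adjusted p = 2.35e-10). The mean ratio of Scd1 to Scd2 was 26.1 in eWAT, 36.7 in iWAT, 128 in BAT and 1308 in liver.

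The regulators did not share 1 order. Thrsp, known as Spot 14 and a thyroid hormone and carbohydrate responsive gene, was highest in BAT, with 843, 843, 1179 and 1116 FPKM in BAT, 259, 287, 259 and 88.3 in liver, 269, 172, 239 and 165 in iWAT and 71.0, 77.0, 141 and 140.1 in eWAT. All BAT libraries were above all others, and liver vehicle library 4 stood below the other 3 liver libraries. Srebf1 was highest in liver, with 113, 101, 115 and 80.3 FPKM, against 52.8, 51.8, 47.7 and 47.7 in iWAT, 42.1, 40.3, 44.1 and 26.0 in BAT and 20.9, 13.96, 39.8 and 38.9 in eWAT. Liver did not overlap with any fat depot (against iWAT, log2 difference 1.00, SE 0.27, limma adjusted p = 0.00343), and in BAT, where 6 of the 7 enzymes were highest, every library was below every iWAT library without a difference that passed (log2 difference -0.41, limma adjusted p = 0.221). Mlxipl had 132, 109, 97.4 and 129 FPKM in liver, 69.6, 57.5, 76.0 and 61.5 in BAT, 6.89, 7.34, 8.77 and 9.17 in iWAT and 4.66, 2.81, 8.98 and 9.005 in eWAT. Liver was above BAT without overlap (limma adjusted p = 0.00908), and BAT was above both white depots without overlap (log2 difference 2.89, SE 0.25, limma adjusted p = 1.55e-07 against iWAT). The mean ratio of Srebf1 to Mlxipl was 0.577 in BAT and 0.895 in liver against 4.55 in eWAT and 6.34 in iWAT.

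**Figure D1:**
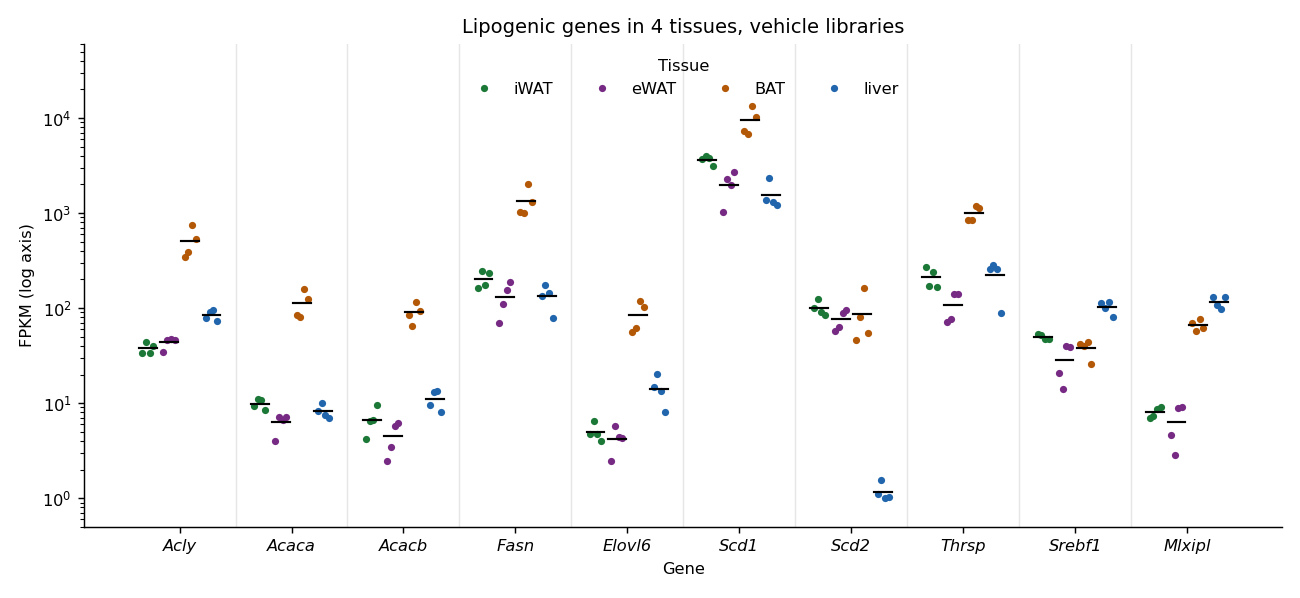
FPKM on a log axis of the 10 genes in the 4 vehicle libraries of each tissue; points are libraries, lines are means and colours are tissues. BAT is the highest tissue for 7 genes (Acly, Acaca, Acacb, Fasn, Elovl6, Scd1 and Thrsp), liver is highest for Srebf1 and Mlxipl, and Scd2 in liver is near 1 FPKM.

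Counted over the 10 members, BAT was higher than iWAT in 8 and lower in 0 (50.1% of all 14339 genes passed in either direction, 24.4% higher), and 8 were higher without overlap (24.9% of all genes) and 1, Srebf1, lower without overlap (26.8%). BAT was likewise higher than eWAT in 8 and lower in 0 (53% of all genes passed, 25.3% higher). Liver was lower than BAT in 8 and higher in 2, Srebf1 and Mlxipl (63.1% of all genes passed, 31.8% lower and 31.4% higher). Against iWAT, liver was higher in 5 and lower in 2 (69.5% of all genes passed, 35.8% higher and 33.7% lower), and against eWAT higher in 6 and lower in 1 (71.9%, 37.4% higher and 34.5% lower). The vehicle and auranofin libraries are separate sets, and in the auranofin libraries the contrasts of BAT with each white depot also passed for 8 members, all higher in BAT, with 22.6% of all genes higher than in iWAT and 24.9% higher than in eWAT.

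These orders depend in part on how libraries are scaled. On a TPM scale the median log2 difference of all genes moved from near 0 to 0.32 for eWAT against iWAT, -0.32 for BAT against iWAT, -0.69 for BAT against eWAT, -0.62 for liver against iWAT, -0.98 for liver against eWAT and -0.32 for liver against BAT. On that scale BAT was higher than iWAT in 8 members and lower in 2, Scd2 and Srebf1 (13.5% of all genes higher and 41.9% lower), and higher than eWAT in 8 and lower in 1, Scd2 (9.05% and 62.5%). The liver comparisons shifted more, to 2 higher and 5 lower against iWAT (19.2% and 56.9% of all genes) and to 2 higher and 4 lower against eWAT (14.6% and 68.2%), and under quantile normalisation they were 3 higher and 3 lower (31.1% and 37.0%), and 4 higher and 3 lower (33% and 37.1%). Mlxipl stayed higher in liver than in both white depots under TPM (log2 differences 3.04 and 3.07), as did Srebf1 against eWAT (0.75) but not by the test against iWAT (0.25). The higher Mlxipl of liver against BAT no longer passed under TPM (0.43) or quantile normalisation (0.084), and the higher Scd1 of BAT no longer passed under quantile normalisation against iWAT (0.59) or eWAT (0.51).

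Between the white depots the vehicle libraries differed in 4 members, Srebf1 (log2 difference -0.91, SE 0.27, limma adjusted p = 0.0114), Scd1 (-0.96, 0.0162), Thrsp (-1.01, 0.0244) and Acaca (-0.60, 0.0305), all lower in eWAT and without overlap (20.6% of all genes), while 46.2% of all genes passed, 24.8% lower and 21.4% higher. In the auranofin libraries of the same depots the log2 differences of these genes, in this order, were 0.10, 0.086, 0.89 and 0.15, with limma adjusted p of 0.860, 0.936, 0.122 and 0.821, where 10.6% of all genes passed. Under TPM the 1 member that passed was Acly, higher in eWAT (0.63, where 52.5% of all genes passed), and under quantile normalisation Acaca passed lower and Acly higher (-0.58 and 0.57, where 41.7% passed). Leaving out eWAT vehicle library 1 left 1 call, where 39.4% of all genes passed, and leaving out iWAT vehicle library 3 left 2, where 42.7% did. The eWAT vehicle libraries also differed among themselves: Srebf1 was 20.9 and 13.96 FPKM in libraries 1 and 2 against 39.8 and 38.9 in libraries 3 and 4, while the 8 adipocyte markers summed to 2562, 4128, 5195 and 5836 FPKM and the 8 macrophage markers to 3152, 2918, 1264 and 1296 in libraries 1 to 4, none at 0. The part of cell composition in these differences was not tested.

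Neighbours in each gene's order of levels often did not differ beyond their spread. For Fasn, neither liver and iWAT nor liver and eWAT parted (limma adjusted p = 0.0737 and 0.881), and the same neighbours did not part for Acaca (0.313 and 0.147), whose iWAT and eWAT levels differed as given above. Acacb and Elovl6 were lower in iWAT than in liver (0.0330 and 0.000663) and did not differ between iWAT and eWAT (0.120 and 0.558). For Thrsp, liver and iWAT did not part (0.955), nor did eWAT and liver for Scd1 (0.351), BAT and eWAT for Srebf1 (0.126), or iWAT and eWAT for Mlxipl (0.199) and Acly (0.468).

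In iWAT, 3 of the 4 auranofin libraries were below every vehicle library in Fasn, Acly, Scd2, Elovl6 and Srebf1 and above every one in Mlxipl, and auranofin library 2 was not. No member passed the test: 0 of 10 by limma, where 0% of all 13164 genes passed, and 0 by voom on reads. At an unadjusted p under 0.05 there were 3 members, Thrsp and Srebf1 lower and Mlxipl higher, where 12.8% of all genes were lower and 9.17% higher. The median log2 change of the members was -0.25, with 7 of 10 below 0, against -0.017 over all genes.

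Thrsp had 136, 128, 73.0 and 102 FPKM in auranofin libraries 1 to 4 against 269, 172, 239 and 165 in vehicle libraries 1 to 4 (log2 change -0.95, SE 0.24, limma adjusted p = 0.204). Every auranofin library was below every vehicle library, as in 2.41% of all genes. Srebf1 had 36.9, 49.4, 34.9 and 32.4 against 52.8, 51.8, 47.7 and 47.7 FPKM (log2 change -0.39, SE 0.14, limma adjusted p = 0.204), and auranofin library 2 reached into the vehicle range. Mlxipl went the other way, with 19.1, 8.29, 15.6 and 12.6 against 6.89, 7.34, 8.77 and 9.17 FPKM (log2 change 0.67, SE 0.22, limma adjusted p = 0.204). Libraries 1, 3 and 4 were above all vehicle libraries and library 2 was among them.

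The enzymes showed the same single library. Fasn had 114, 257, 100.3 and 104 FPKM in the auranofin and 164, 243, 176 and 234 in the vehicle libraries (log2 change -0.60, SE 0.31, limma adjusted p = 0.258). Acly had 29.0, 46.0, 28.5 and 29.6 against 33.8, 43.5, 34.0 and 40.3 FPKM and Scd2 had 63.3, 137, 60.0 and 75.1 against 101, 125, 90.6 and 85.5. In all 3 genes auranofin library 2 was the highest of the 8 and the other 3 auranofin libraries were below every vehicle library. Elovl6 had 3.81, 6.73, 2.66 and 3.46 against 4.72, 6.42, 4.74 and 4.02 FPKM, Acaca 8.63, 11.2, 6.59 and 6.66 against 9.26, 10.98, 10.7 and 8.42, and Acacb 5.55, 8.68, 5.38 and 7.43 against 4.15, 6.51, 6.65 and 9.53, each with overlapping groups. Scd1 had 3041, 5635, 2460.3 and 4985 against 3674, 3933, 3821 and 3159 FPKM, so that libraries 2 and 4 were above and libraries 1 and 3 below all vehicle libraries (log2 change 0.067, 95% interval -0.61 to 0.75).

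Auranofin library 2 is singled out here by its values for these same genes, so a fit without it restates that it stood apart and is no independent support. Without it, 8 of the 10 members passed, where 36.4% of all 13248 genes tested did (21.3% lower and 15.1% higher), and leaving out any other single library gave 0. Those lower were Fasn, log2 change -0.92, Thrsp, -1.03, Scd2, -0.59, Srebf1, -0.51, Elovl6, -0.47, Acaca, -0.39, and Acly, -0.36. Mlxipl was higher, 0.88, and Acacb and Scd1 did not pass, with -0.082 and -0.12. With all libraries kept but weighted by quality, 8 members passed, among 46.3% of all genes. The weights were estimated from the spread of these same expression values, so the weighted fit is no independent support either. Auranofin library 2 also stood apart in its scaling. Libraries 1, 3 and 4 were scaled to library sizes of 22889469, 23518961 and 22327421 for 17414245, 17672424 and 17302126 reads on genes. Library 2 was scaled to 18848468 for 18436456 reads, and the vehicle libraries to 17251599 to 20272361 for 16015264 to 18337278 reads. A larger size lowers the FPKM of the same reads, and its part in the fit without library 2 was not tested. Auranofin library 2 stood apart in cell markers too. The 8 adipocyte markers summed to 7860.5, 12243, 6625 and 7072 FPKM in auranofin libraries 1 to 4 and to 10815 to 11685 in vehicle, and the 6 endothelial markers to 200.3, 93.7, 246 and 185 against 103 to 137, with none at 0. Auranofin libraries 1, 3 and 4 thus had a lower adipocyte marker sum and a higher endothelial one than every vehicle library, and the part of cell composition was not tested. Leaving out the library 4 of both groups, which held muscle RNA, gave 0 calls and a member median of -0.25. On the TPM scale the median of all genes was 0.23, the members' median was -0.014 and Acaca and Acly turned to 0.0066 and 0.074.

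**Figure D2:**
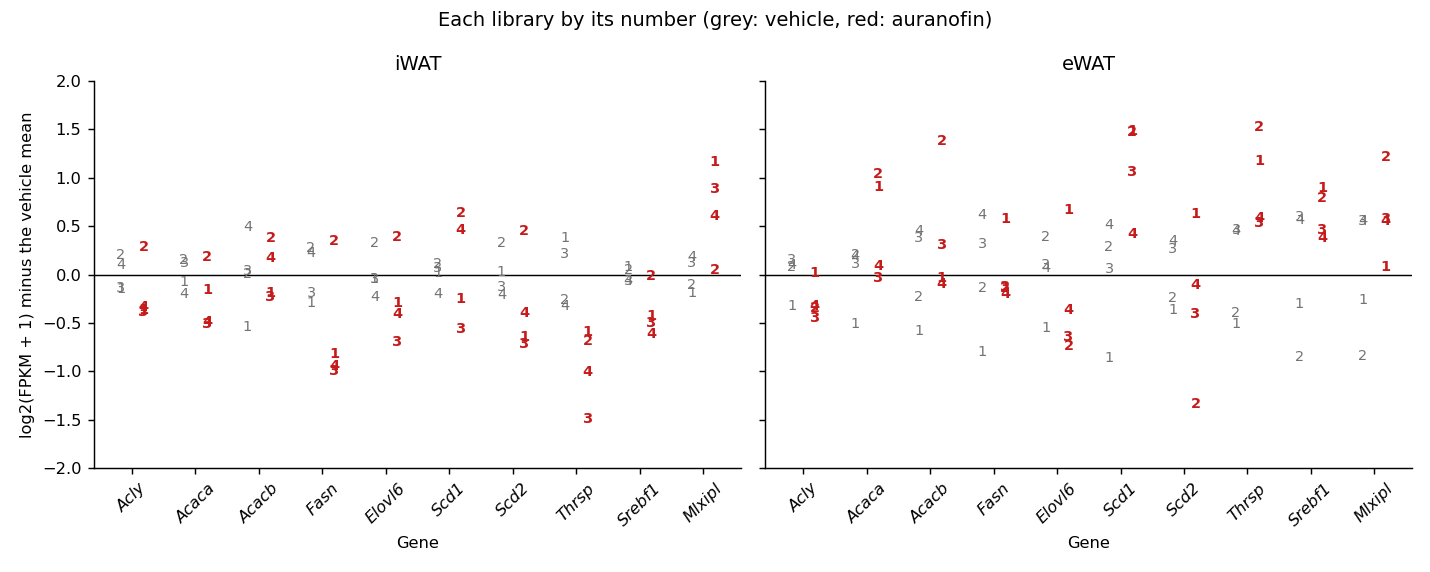
log2(FPKM + 1) minus the vehicle mean of the gene, for the vehicle (grey) and auranofin (red) libraries of iWAT and eWAT; each digit is the number of 1 library within its group. In iWAT the red 2 lies at or above 0 for 8 of 10 genes while the red 1, 3 and 4 lie together below it for Fasn, Acly, Scd2 and Thrsp and above it for Mlxipl; in eWAT the grey 1 is the lowest vehicle library for 8 of 10 genes.

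In eWAT, Scd1 and Thrsp had the largest differences, both higher with auranofin, and no member passed (0 of 10 by limma, where 0% of all 13847 genes passed, and 0 by voom). At an unadjusted p under 0.05 there were 2, where 5.32% of all genes were higher and 6.13% lower. Scd1 had 5248, 5203, 3892 and 2511 FPKM in the auranofin and 1032, 2288, 1949 and 2671 in the vehicle libraries (log2 change 1.11, SE 0.39, limma adjusted p = 0.429), with auranofin library 4 inside the vehicle range. Thrsp had 231, 295, 148 and 154 against 71.0, 77.0, 141 and 140.1 FPKM (log2 change 0.95, SE 0.32, limma adjusted p = 0.429). Every auranofin library was above every vehicle library, as in 3% of all genes, and the nearest pair of libraries was at 148 and 141 FPKM.

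The other members had changes on both sides of 0 in eWAT. Srebf1 had 49.1, 45.9, 36.1 and 34.0 against 20.9, 13.96, 39.8 and 38.9 FPKM (log2 change 0.63, SE 0.33, limma adjusted p = 0.432), and Mlxipl 6.19, 14.8, 9.14 and 9.03 against 4.66, 2.81, 8.98 and 9.005 (log2 change 0.61, SE 0.35, limma adjusted p = 0.442). Vehicle libraries 1 and 2 were low in both and libraries 3 and 4 were within the auranofin range. Fasn did not follow Scd1: it had 183, 111, 112 and 107 against 70.1, 111, 154 and 189 FPKM (log2 change 0.027, 95% interval -0.71 to 0.76). Acly (-0.28), Elovl6 (-0.27) and Scd2 (-0.31) had log2 changes below 0, and Acaca (0.50) and Acacb (0.39) above 0, with limma adjusted p of 0.440 to 0.690. The median of the members was 0.44, with 7 of 10 above 0, against 0.0029 over all genes. With libraries weighted by quality the median was -0.13, with Scd1 at 0.52, Thrsp at 0.30 and Fasn at -0.52, and on the TPM scale, where the median of all genes was -0.14, Fasn was at -0.13.

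The macrophage markers summed to 1617, 616, 1204 and 1613 FPKM in eWAT auranofin libraries 1 to 4 and the adipocyte markers to 9107, 7688, 5071 and 5653, beside the vehicle values given above, so that all 8 macrophage markers had log2 changes below 0 and all 8 adipocyte markers above 0, none passing. Vehicle libraries 1 and 2, which had the highest macrophage sums, were also those low in Srebf1 and Mlxipl. A fit without them therefore restates that they stood apart and is no independent support. Without them the median of the members was 0.014, and the part of cell composition was not tested. Scd1 was then 0.82, Thrsp 0.50, Srebf1 0.052, Mlxipl 0.054 and Fasn -0.44, none passing. In 1 fit of all 32 libraries, Scd1 was the 1 member that passed, where 6.99% of all genes did (limma adjusted p = 0.0474, against 0.272 to 0.999873 in the other alternatives).

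In BAT, 9 of the 10 members had log2 changes above 0 and Scd1 was below, and none passed (0 of 10 by limma, where 0.023% of all 13067 genes passed, and 0 by voom). Thrsp and Mlxipl were under 0.05 before adjustment, where 4.66% of all genes were higher and 6.5% lower. Thrsp had 1499, 1393, 1773 and 1156 FPKM in the auranofin and 843, 843, 1179 and 1116 in the vehicle libraries (log2 change 0.55, SE 0.18, limma adjusted p = 0.332), and auranofin library 4 was within the vehicle range. Mlxipl had 115, 84.0, 103 and 68.5 against 69.6, 57.5, 76.0 and 61.5 FPKM (log2 change 0.46, SE 0.17, limma adjusted p = 0.376), again with library 4 among the vehicle values. Srebf1 was similar in size and more spread, with 52.9, 41.7, 71.6 and 42.6 against 42.1, 40.3, 44.1 and 26.0 FPKM (log2 change 0.44, SE 0.21, limma adjusted p = 0.484).

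The BAT enzymes spread widely within both groups. Fasn had 1694, 1449.7, 2163 and 1038 against 1028, 1011, 2036 and 1316 FPKM (log2 change 0.25) and Acly 649, 606, 971 and 252 against 348, 390.3, 755 and 528 (0.21). Vehicle library 3 and auranofin library 3 were the highest of their groups and auranofin library 4 the lowest of its group. Scd1 had 9170.4, 5583, 12728 and 5614 against 7241, 6797, 13449 and 10176 FPKM (log2 change -0.22, 95% interval -0.99 to 0.55), and Scd2 ranged from 20.8 to 197 with auranofin and from 46.3 to 161 with vehicle. Acacb was 131 FPKM in auranofin library 4, its highest value, while Acaca was 73.3 there, its lowest. The skeletal muscle markers summed to 2.59, 2509, 3.04 and 1036 FPKM in auranofin libraries 1 to 4 and to 49.3, 2.97, 224 and 608 in vehicle, so library 4 carried muscle RNA and library 2 more of it, with an Acaca to Acacb ratio of 0.559 in the first and 1.52 in the second. The 8 macrophage markers summed to 58.5 to 143 FPKM with auranofin against 119 to 243 with vehicle, none at 0, and their part in the results was not tested.

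In liver the groups overlapped in every member, and none passed (0 of 10 by limma, where 0% of all 13122 genes passed, 0 at an unadjusted p under 0.05, where 2.5% of all genes were higher and 3.54% lower, and 0 by voom). Scd1 had 1004, 1804, 913 and 1025 FPKM in the auranofin and 1367, 2349, 1303 and 1212 in the vehicle libraries (log2 change -0.40, SE 0.26, limma adjusted p = 0.831), with library 2 the highest in both groups. Thrsp had 165, 319, 390.0 and 116 against 259, 287, 259 and 88.3 FPKM (log2 change 0.12, 95% interval -0.94 to 1.18), and library 4 was the lowest in both. Mlxipl had 126, 108, 136 and 149.5 against 132, 109, 97.4 and 129 (log2 change 0.15, 95% interval -0.14 to 0.45), and Srebf1 75.3, 131, 112 and 57.6 against 113, 101, 115 and 80.3 (-0.73 to 0.37). The intervals of Acaca (-0.27 to 0.34) and Mlxipl were the narrowest of the 10 members, and that of Thrsp was the widest. Fasn (-0.041), Elovl6 (-0.088), Acly (0.20), Acacb (0.22) and Scd2 (0.10) were within 0.22 of 0.

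**Figure D3:**
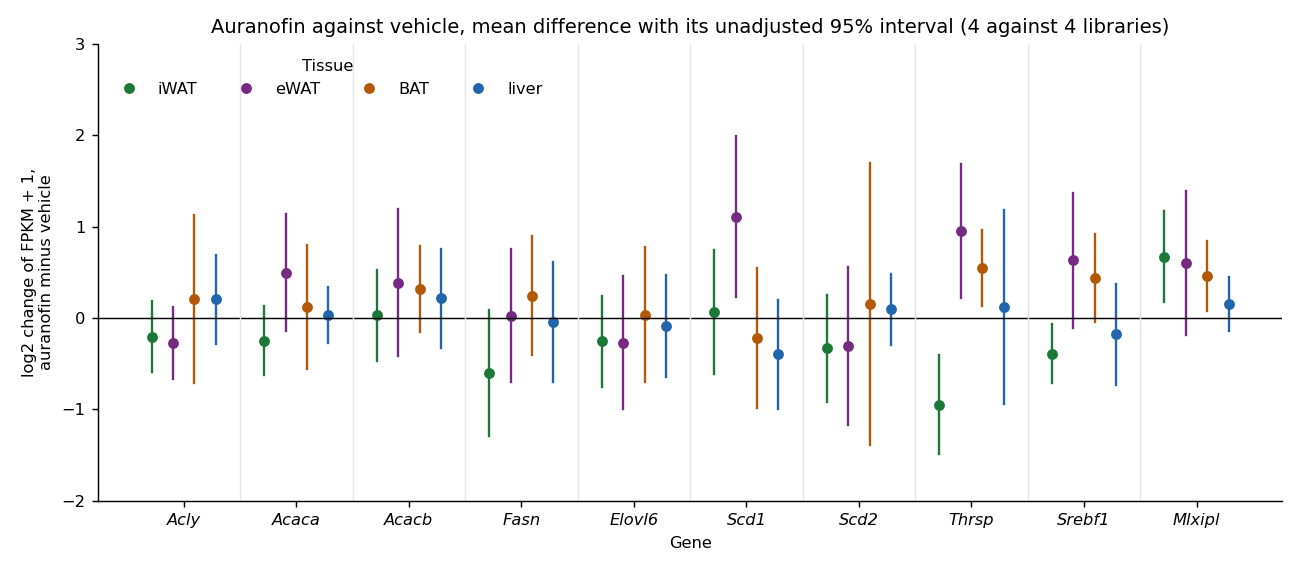
Log2 change of FPKM + 1, auranofin minus vehicle, with its unadjusted 95% interval from limma, for 10 genes in 4 tissues (colours), 4 against 4 libraries. Thrsp lies at -0.95 in iWAT and at 0.95 in eWAT, Scd1 at 1.11 in eWAT, and Mlxipl above 0 in all 4 tissues.

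Whether the auranofin change differed between tissues was tested by interaction, and 0 members passed by limma in any of the 4 contrasts, where 0% of genes passed for eWAT against iWAT, eWAT against BAT and liver against the fat depots, and 0.0224% for iWAT against BAT. At an unadjusted p under 0.05 there were 3, 1, 0 and 2 members for these contrasts in the same order. Of all genes, 13.3%, 3.32%, 3.01% and 9.76% were higher and 10.3%, 2.52%, 3.03% and 13.4% lower. By voom 0 members passed in each. Thrsp had the largest difference: its change in eWAT was above that in iWAT by 1.90 (SE 0.42, limma adjusted p = 0.177), rank 13 of 13670 genes by p. Its change in iWAT minus that in BAT was -1.49 (SE 0.31, limma adjusted p = 0.103). Srebf1 had 1.02 (SE 0.37, limma adjusted p = 0.177) for eWAT minus iWAT and -0.83 (SE 0.27, limma adjusted p = 0.123) for iWAT minus BAT, and Acaca 0.74 (SE 0.35, limma adjusted p = 0.210) for eWAT minus iWAT. Scd1 in eWAT minus BAT was 1.33 (SE 0.54, limma adjusted p = 0.777). For Mlxipl, whose change was above 0 in all 4 tissues, the differences between depots were -0.066, 0.15 and 0.21 for eWAT minus iWAT, eWAT minus BAT and iWAT minus BAT. With libraries weighted by quality, the Mlxipl difference of eWAT minus iWAT was -0.75 and passed (limma adjusted p = 0.0247, against an adjusted p of 0.940 without weights). That of Thrsp passed as well, where 29.9% of all genes passed. The weights were estimated from these same expression values, so the weighted fit is no independent support. Without iWAT auranofin library 2, 3 members passed for iWAT against BAT, where 27.4% of all genes did, and 1 for eWAT against iWAT, where 14.8% did. Without BAT auranofin library 2, 1 passed for iWAT against BAT, where 2.49% of all genes did.

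Some ratios between members did not overlap between the treatment groups. Scd1 made up 88.0, 89.6, 88.3 and 93.0% of the summed FPKM of the 10 members in auranofin libraries 1 to 4 of iWAT against 85.1, 85.5, 86.1 and 84.0% with vehicle, without overlap. In BAT it made up 67.0, 58.7, 69.1 and 66.4% against 73.6, 72.1, 74.3 and 74.8%, without overlap in the opposite direction. The ratio of Scd1 to Fasn was 28.7, 46.7, 34.6 and 23.5 against 14.7, 20.6, 12.7 and 14.1 in eWAT, higher without overlap, and 5.41, 3.85, 5.89 and 5.41 against 7.04, 6.72, 6.61 and 7.73 in BAT, lower without overlap. Thrsp to Fasn was 1.26, 2.64, 1.32 and 1.44 against 1.01, 0.692, 0.917 and 0.741 in eWAT, higher without overlap. A ratio within a library does not depend on its library size, and these are 5 of 28 combinations of ratio and tissue examined, given without a test. They are listed because they did not overlap, and they share genes and libraries, so they are not separate observations. The ratio of Srebf1 to Mlxipl in iWAT was 1.93, 5.96, 2.24 and 2.56 with auranofin against 7.65, 7.05, 5.44 and 5.20 with vehicle, with library 2 again in the vehicle range.

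**Figure D4:**
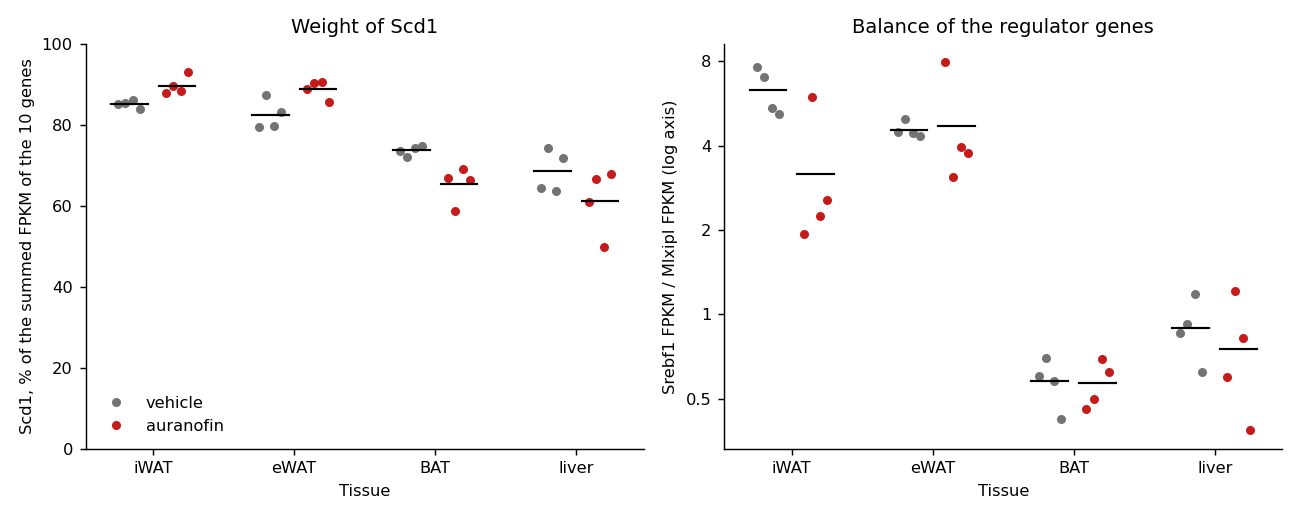
Left, the share of Scd1 in the summed FPKM of the 10 genes (percent); right, the ratio of Srebf1 to Mlxipl FPKM on a log axis; points are libraries of vehicle (grey) and auranofin (red) and lines are means. The Scd1 share is higher with auranofin in iWAT (88.0% to 93.0% against 84.0% to 86.1%) and lower in BAT (58.7% to 69.1% against 72.1% to 74.8%), and 3 of 4 iWAT auranofin libraries have a Srebf1 to Mlxipl ratio under 2.6 against 5.20 to 7.65 with vehicle.

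Between libraries of 1 group, 5 of the enzymes varied together. After the mean of each tissue and treatment group was removed, the 10 pairs among Fasn, Acaca, Acly, Scd1 and Elovl6 had a median Pearson r of 0.773 (0.643 to 0.809) over 32 libraries, which share their depth and tissue composition between genes. In BAT alone the median was 0.925 (0.832 to 0.972, 8 libraries). Over all 45 pairs of members the median was 0.513. The mean of these 5 enzymes deviated from its group mean by 0.68 in BAT auranofin library 3, 0.60 in BAT vehicle library 3 and -0.69 in BAT auranofin library 4 on the log2 scale. In white fat the largest deviations were 0.61 in iWAT auranofin library 2 and -0.61 in eWAT vehicle library 1. Liver libraries 2 were high in both groups (0.41 with vehicle and 0.38 with auranofin) and libraries 4 low in both (-0.41 and -0.43).

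The other members followed these 5 enzymes to different degrees. Against the mean of the 5 enzymes, r was 0.683 for Scd2, 0.605 for Thrsp, 0.513 for Srebf1, 0.468 for Acacb and -0.0531 for Mlxipl, and Srebf1 and Thrsp had r = 0.694 with each other. In single pairs with the 5, Acacb had r of 0.189 (Elovl6) to 0.556 (Scd1) and Scd2 0.524 (Scd1) to 0.760 (Acly). Acacb and Scd2 had r = -0.0447 with each other. For Mlxipl the sign of r varied between tissues: its r with Fasn was 0.758 in BAT and 0.271 in eWAT but -0.671 in iWAT and -0.670 in liver, and with Acly 0.752, -0.0449, -0.723 and -0.836 in that order. Each r rests on 8 libraries, and the difference between tissues was not tested. The iWAT values include auranofin library 2, the highest of its group in Fasn (257 FPKM) and the lowest in Mlxipl (8.29 FPKM). Of 8999 genes at 1 FPKM or more in every tissue, the 8 most like the mean of the 5 enzymes were Me1 (r = 0.843), Acss2 (0.836), G6pdx (0.812), Chpt1 (0.805), Nars2 (0.798), Vcp (0.791), Dlat (0.785) and Tkt (0.785). Me1 encodes cytosolic malic enzyme and G6pdx glucose-6-phosphate dehydrogenase, which make NADPH, and Acss2 encodes the cytosolic synthetase that makes acetyl-CoA from acetate.

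**Figure D5:**
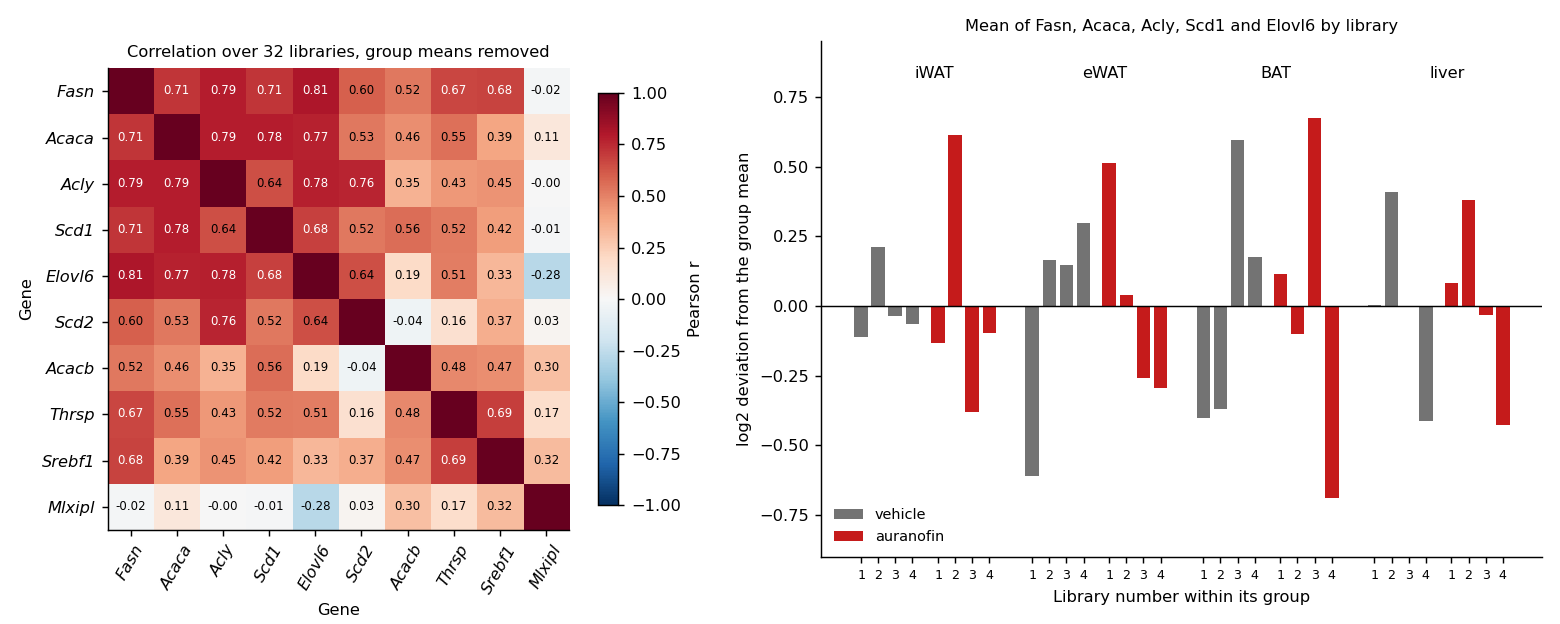
Left, Pearson correlation of log2(FPKM + 1) between the 10 genes over 32 libraries after the group means were removed; right, the deviation of the mean of 5 enzymes from its group mean (log2) by library, grey for vehicle and red for auranofin. The 5 enzymes Fasn, Acaca, Acly, Scd1 and Elovl6, a set chosen by name, have r of 0.64 to 0.81 with each other. Acacb has a lower r with each of them, and Scd2 with some. Mlxipl has r of -0.28 to 0.32 with the other genes, and BAT libraries span -0.69 to 0.68.

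The genes that supply acetyl-CoA and NADPH, 13 in the list used, all passed the filter and none passed the test in any tissue. In iWAT 12 of 13 had log2 changes below 0 (median -0.33), with the smallest p for Taldo1, transaldolase (171 ± 79.9 FPKM in auranofin and 265 ± 14.5 in vehicle libraries, log2 change -0.73), and Slc25a1, the mitochondrial citrate carrier (192 ± 149 FPKM in auranofin and 348 ± 61.1 in vehicle libraries, -1.09). In BAT 12 of 13 were above 0 (median 0.22), led by Tkt, transketolase (0.29), and Taldo1 (0.25). In liver 11 of 13 were below 0 (median -0.10), led by Tkt (-0.24) and Pdha1 (-0.19), and in eWAT 9 of 13 were above 0 (median 0.12), led by Aacs (0.67) and Pgls (0.63). Across tissues without the drug, 10 of the 13 were higher and 0 lower in BAT than in eWAT (25.3% of all genes higher and 27.8% lower). In eWAT 11 were lower and 0 higher than in iWAT (24.8% of all genes lower and 21.4% higher). G6pdx was at 1.83 FPKM in liver against 85.7 in BAT, while Slc25a1 was at 187 in liver and 280 in BAT.

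Among 20 other regulators of lipogenesis, none passed in any tissue. In iWAT 6 of 19 tested were above 0 (median -0.10), with the smallest p for Mlxip, the paralog of Mlxipl known as MondoA (6.08 ± 1.55 FPKM in auranofin and 3.53 ± 0.710 in vehicle libraries, log2 change 0.63), and Nr1h3, which encodes LXR alpha (-0.41). In eWAT 15 of 20 were above 0 (median 0.15), led by Cebpa (1.19) and Nr1h3 (0.35). In BAT 12 of 20 were above 0 (median 0.05), led by Mlx, the partner of ChREBP (0.39), and Lpin1 (0.31), and in liver 12 of 20 (median 0.02), with the smallest p for Insig2, which retains SREBP in the endoplasmic reticulum (-0.61), and Pparg (-0.27). In vehicle libraries 13 of the 20 were higher in liver than in eWAT and 4 lower (37.4% of all genes higher and 34.5% lower). Insig2 was at 186 FPKM in liver against 11.3 to 20.7 in fat, and Pparg at 6.83 in liver against 41.7 to 105 in fat.

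Of 10 genes known as ChREBP targets outside lipogenesis, 5 of 6 tested in iWAT were below 0 (median -0.19), where Mlxipl itself was above 0. Txnip, a thioredoxin-binding protein gene, was the 1 above 0 (327 ± 89.1 FPKM in auranofin and 208 ± 25.7 in vehicle libraries, log2 change 0.62, limma adjusted p = 0.204). In eWAT all 6 tested were above 0 (median 0.49), led by Khk, ketohexokinase (7.86 ± 1.502 FPKM in auranofin and 3.91 ± 1.26 in vehicle libraries, 0.88, without overlap, as in 3% of all genes), and Tkfc (0.50). Hepatocyte markers there were 86.2, 696, 238 and 8.36 FPKM in the auranofin and 57.2, 21.9, 26.4 and 6.62 in the vehicle libraries, and their part was not tested. In BAT 4 of 5 were above 0 (median 0.22), led by Khk (0.27) and Pnpla3 (0.51), and in liver 7 of 10 were below 0 (median -0.11), led by Pklr, liver pyruvate kinase (-0.33), and Tkfc (-0.25). None passed. Across tissues, 7 of the 10 were higher in liver than in each fat depot, among them Pklr and Khk. Of all genes, 35.8% were higher in liver than in iWAT, 37.4% than in eWAT and 31.4% than in BAT. Gpd1, Txnip and Pnpla3 were the 3 lower in liver than in BAT (31.8% of all genes lower).

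Of 16 genes of glucose uptake and insulin signalling, the smallest p in eWAT were those of Slc2a4, the insulin-responsive glucose transporter GLUT4 (43.3 ± 15.5 FPKM in auranofin and 17.2 ± 11.6 in vehicle libraries, log2 change 1.48, limma adjusted p = 0.429), and Pfkm (0.43). Both were higher without overlap, as in 3% of all genes, and 10 of 14 were above 0 (median 0.07). In BAT they were Hk1 (-0.38) and Slc2a4 (0.43), in iWAT Hk1 (0.29) and Pfkl (-0.46), and Akt2 had -0.14 in liver, and none passed. In the vehicle libraries 8 of 16 were higher and 0 lower in BAT than in iWAT (24.4% of all genes higher and 25.7% lower). Slc2a4 was at 110 FPKM in BAT, 43.1 in iWAT, 17.2 in eWAT and 0.123 in liver.

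The remaining lists held the enzymes that use malonyl-CoA or lengthen and desaturate other fatty acids. In the malonyl-CoA and mitochondrial fatty acid synthesis list, with Hsd17b8 not analysed here, 7 of 8 tested were below 0 in iWAT (median -0.30), led by Cbr4 (-0.44) and Ndufab1, the mitochondrial acyl carrier protein (-0.61), and 7 of 8 above 0 in eWAT (median 0.37), where Acsf3 had 0.68 and Cpt1a, the carnitine acyltransferase that malonyl-CoA inhibits, was the 1 below 0 (26.7 ± 2.17 FPKM in auranofin and 37.9 ± 5.84 in vehicle libraries, -0.48). In BAT 7 of 9 were above 0 (median 0.22), with -0.32 for Cpt1a and 0.26 for Cbr4, and in liver 7 of 8 below 0 (median -0.11), with -0.27 for Acsf3 and -0.22 for Cpt1a. Among the other elongases, desaturases and acyl-CoA synthetases, of which 14 of 18 were tested in each fat depot and 15 in liver, the medians were -0.16 in iWAT, -0.09 in eWAT, 0.09 in BAT and -0.03 in liver. The genes with the smallest p were Fads2, the delta-6 desaturase (4.05 ± 1.31 FPKM in auranofin and 1.96 ± 0.348 in vehicle libraries, 0.74), and Elovl3 (-1.10) in iWAT, Acsl4 (-0.30) and Acsl3 (-0.38) in eWAT, Acsl5 (0.77) and Tecr (0.20) in BAT, and Hacd3 (-0.13) and Hsd17b12 (-0.18) in liver. None of either list passed in any tissue. In the vehicle libraries, Fads1, Fads2, Elovl2 and Elovl5 were at 214, 338, 237 and 432 FPKM in liver against at most 25.8 in the fat depots, whereas Fasn and Elovl6 were highest in BAT.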

How the data were processed

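RNA was sequenced from 32 libraries, and the authors deposited 1 table of FPKM per gene on mm10, with the submitters' processing notes naming the aligner STAR (2.6.1d), the counter featureCounts (1.5.0-p3) and also DESeq2 (1.20.0). Each library has its own unit step once FPKM is multiplied by gene length, and dividing by it gave whole reads (tolerance 0.1) for 100% of values; voom used these. limma 3.58.1 in R 4.3.3 was fitted on log2(FPKM + 1) with an intensity trend, for genes whose mean reached 0.5 FPKM, and p-values were Benjamini-Hochberg adjusted over all genes at 0.05. Treatment was fitted in each tissue alone, tissue contrasts over the 16 vehicle libraries, and interactions over the tissues compared. The fits were tested on simulated data. Members and gene lists were chosen with earlier results of these data known. In each of 6 pathway lists the text names up to 3 called genes per tissue, or the 2 with the smallest p where none passed, as was the case throughout, and other genes named there were chosen after their values were seen. Some genes that this rule selects are not reported here. Marker lists were of adipocytes, brown adipocytes, hepatocytes, macrophages, muscle, mesothelium, B cells, endothelium and epithelium, and those of mesothelium, B cells and epithelium summed to at most 72.9, 911 and 509 FPKM in any library. The alternatives were other pseudocounts, filters, scalings, voom, weights, a replicate block and left-out libraries.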

Additional observations from a re-analysis of the deposited data

Results flagged for a closer look

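A library far from the other 3 of its group was found in 8 of 80 groups of 4, where chance flags about 1 in 20 independent groups. These groups are not independent, because they hold genes that varied together in the same 32 libraries. The count therefore cannot be set against that rate. In iWAT this was auranofin library 2 for Fasn (257 FPKM) and Acly (46.0 FPKM), both high. In eWAT it was auranofin library 1 for Fasn (183 FPKM, high) and vehicle library 1 for Acaca (4.02 FPKM) and Acly (34.1 FPKM), both low. In liver it was library 2 for Scd1, high in the vehicle (2349 FPKM) and the auranofin group (1804 FPKM), and vehicle library 4 for Thrsp (88.3 FPKM, low).

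For Thrsp and Srebf1 every auranofin library lay on 1 side of the vehicle mean in iWAT and on the other side in eWAT and in BAT. The change of Thrsp in eWAT was above that in iWAT by 1.90 on the log2 scale, and that in BAT was above that in iWAT by 1.49. For Srebf1 the same differences were 1.02 and 0.83. None of the 4 passed the interaction test (limma adjusted p = 0.177 and 0.103 for Thrsp, 0.177 and 0.123 for Srebf1).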

How the results depend on the processing

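The count of members passing for auranofin in iWAT was 8 with quality weights (46.3% of all genes passed). It was 0 to 8 when 1 library was left out (36.4% in the fit with 8), and in eWAT 1 in 1 fit of all libraries (6.99%). For eWAT against iWAT it was 1 with no low-value filter (23.4%), 1 under TPM (52.5%), 2 under quantile normalisation (41.7%) and 0 in the auranofin libraries (10.6%). With 1 library left out it was 1 to 5 (39.4% of all genes in a fit with 1, and 46.2% with all libraries kept). The interaction counts were 2 with weights (Thrsp and Mlxipl, where 29.9% of all genes passed) and 0 to 1 with 1 library left out (14.8% in the fit with 1) for eWAT against iWAT, and 3 with weights (33%) and 0 to 3 (27.4% in the fit with 3) for iWAT against BAT.

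Single genes that changed sign under TPM were, for auranofin, Acaca (0.0066) and Acly (0.074) in iWAT, Fasn in eWAT (-0.13), and Acaca (-0.025) and Elovl6 (-0.10) in BAT, and between tissues Scd2 (0.019) and Elovl6 (0.16) in eWAT against iWAT, Scd2 (-0.79) and Srebf1 (-0.29) in BAT against eWAT, Acacb in liver against iWAT (-0.020), and Fasn (-1.15), Acaca (-0.76), Acly (-0.24) and Thrsp (-0.21) in liver against eWAT. Under quantile normalisation they were Acly (0.054) and Scd2 (0.048) in iWAT, Fasn in eWAT (-0.079) and liver (0.012), Acaca (-0.011) and Elovl6 (-0.090) in BAT, Scd1 (0.081) and Scd2 (0.052) in eWAT against iWAT, Scd2 in BAT against eWAT (-0.27), and Fasn (-1.02) and Thrsp (-0.054) in liver against eWAT. With weights they were Acacb (-0.075) and Scd1 (-0.28) in iWAT, Fasn (-0.52), Acacb (-0.20) and Srebf1 (-0.055) in eWAT, Mlxipl in eWAT against iWAT (0.12), Scd2 in BAT against eWAT (-0.23), Thrsp in liver against iWAT (0.11) and Fasn in liver against eWAT (-0.29).

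In the auranofin libraries they were Acaca (0.15), Scd1 (0.086), Thrsp (0.89) and Srebf1 (0.10) in eWAT against iWAT, Scd2 (0.094) and Srebf1 (0.42) in BAT against iWAT, Acaca (0.039) and Thrsp (1.04) in liver against iWAT, and Fasn (-0.012) and Acaca (-0.11) in liver against eWAT. Without both libraries 4 of iWAT, Scd1 was -0.13, and without vehicle libraries 1 and 2 of eWAT, Fasn was -0.44 and Acacb -0.023. The cause was not tested.

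With 1 library left out, values crossed 0 in iWAT for Acacb (-0.15 to 0.20) and Scd1 (-0.12 to 0.28), in eWAT for Fasn (-0.24 to 0.23) and Scd2 (-0.62 to 0.037), in liver for Fasn (-0.27 to 0.19), Acaca (-0.035 to 0.13), Elovl6 (-0.31 to 0.10), Thrsp (-0.28 to 0.43) and Srebf1 (-0.36 to 0.030), in BAT for Acaca (-0.087 to 0.34), Acly (-0.059 to 0.59), Scd2 (-0.25 to 0.81) and Elovl6 (-0.22 to 0.24), between tissues for Scd2 in BAT against eWAT (-0.33 to 0.26), Thrsp in liver against iWAT (-0.19 to 0.37) and Fasn in liver against eWAT (-0.21 to 0.28), and for Mlxipl in the interaction of eWAT and iWAT (-0.35 to 0.12).

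Libraries of 2 groups that share a number did not deviate together in every pair (in iWAT r was 0.083 to 0.413), so the numbers were not taken as pairs. With a replicate block the counts were 0 for auranofin in every tissue and 4, 8, 8, 7, 7 and 10 for the tissue contrasts, as without it. Of all genes, 45.7%, 49.7%, 53.1%, 69.2%, 71.4% and 62.9% passed in these tissue contrasts with the block. Depth limits Scd2 in liver, with 36 to 121 reads.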
